A study of Mus musculus with 9 samples.

Results

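The genes described here were Tnf and 9 NF-kB target and feedback genes linked to psoriasis, namely Nfkbia, Nfkbiz, Tnfaip3, Tnip1, Nfkb2, Relb, Birc3, Bcl3 and Traf1. They were taken by symbol, and all 10 were present among the 29205 genes measured. RNA from back skin was sequenced in 9 libraries of male BALB/c mice aged 6 to 8 weeks, with 3 libraries in each of 3 groups, and every mouse had been shaved and depilated. The Control group received no imiquimod. The IMQ group received 62.5 mg of cream holding 5% imiquimod on the back each day for 5 days, which gives a psoriasis-like dermatitis. The LYS group received the same cream and also Longkui Yinxiao Soup, a decoction of botanical drugs, which according to the study's methods was given into the stomach at the higher of the doses studied. Skin was collected on day 13. The model is an acute, chemically induced dermatitis, and the sample is whole skin, in which fewer cells of a type and less RNA per cell cannot be told apart.

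Tumour necrosis factor binds its receptors on the cell surface and starts a ubiquitin-dependent kinase cascade that releases NF-kB from its cytoplasmic inhibitors. Many genes that NF-kB switches on feed back on the same cascade: they rebuild the inhibitor, cut ubiquitin chains, shape signalling at the receptor or change which NF-kB dimers act in the nucleus. TNF is a target of antibody treatment in human psoriasis, and TNFAIP3, TNIP1 and NFKBIZ lie at psoriasis risk loci.

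The 10 genes lie on 9 chromosomes of the mouse genome (build GRCm38), since Relb and Bcl3 share a chromosome, and all are annotated as protein-coding. Tnf, which encodes the cytokine, spans chr17:35199381-35202007 on the minus strand. Among the genes of the IkB family, Nfkbia spans chr12:55489410-55492647, Nfkbiz chr16:55811375-55838899 and Bcl3 chr7:19808462-19822770, all on the minus strand. Tnfaip3, for a ubiquitin-editing enzyme, and Tnip1, for its partner, span chr10:19000910-19015657 and chr11:54910785-54962917 on the minus strand. Birc3 and Traf1, whose proteins act at TNF-family receptors, span chr9:7848699-7873186 and chr2:34941750-34961772 on the minus strand. The subunit genes Nfkb2 and Relb span chr19:46304320-46312385 on the plus strand and chr7:19606217-19629438 on the minus strand. Exons of Nfkb2 share 531 bases with AC114539.1 and 299 bases with Psd on the opposite strand, and those of Bcl3 share 161 bases with Gm16175. The library kit, as named, does not mark strand, so reads from such overlaps cannot be assigned to one gene, and their part in the values of Nfkb2 and Bcl3 was not tested.

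The RefSeq promoter windows (GRCm38.p6, from 250 bases before to 50 bases after each transcript start) held 8 of the 10 genes. Nfkbiz and Relb were not among the windows used here. A 10-base kappaB consensus, the sequence class that NF-kB dimers bind, was searched on both strands. It matched in the windows of 5 of the 8 genes, and in 5.14% of all 27025 genes with a window. These stretches are shown because they are the places where the feedback genes carry the letters of an NF-kB site close to the start. Each is written 5′ to 3′ on the gene's own strand, with the bases covered by matches in capitals and positions counted from the transcript start, and stretches inside an annotated exon are kept to 30 bases.
Nfkbia (chr12:55492648-55492706, minus strand, positions -59 to -1): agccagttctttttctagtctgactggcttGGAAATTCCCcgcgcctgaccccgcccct
Tnfaip3, upstream match (chr10:19015516-19015545, minus strand, positions -135 to -106): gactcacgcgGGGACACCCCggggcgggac
Tnfaip3, match next to the start (chr10:19015411-19015452, minus strand, positions -42 to -1): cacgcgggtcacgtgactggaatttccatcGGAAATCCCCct
Tnip1 (chr11:54962957-54963028, minus strand, positions -88 to -17): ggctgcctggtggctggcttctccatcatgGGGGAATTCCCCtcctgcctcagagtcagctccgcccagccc
Nfkb2 (chr19:46304688-46304717, plus strand, positions -49 to -20): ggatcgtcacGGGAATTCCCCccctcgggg
Bcl3 (chr7:19822734-19822763, minus strand, positions -8 to 22): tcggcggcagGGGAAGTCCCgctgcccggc

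The windows of Tnf, Birc3 and Traf1 held no match to these letters. The capitals of Tnip1 span 3 overlapping matches and those of Nfkb2 span 2. Nfkb2 had further matches, 1 at position -11 of the same window and others in the windows of its later starts. The match in Bcl3 lies just past the start, within the transcribed 5′ part. Positions are counted from RefSeq starts. Both Tnfaip3 stretches and the Nfkb2 stretch lie before those starts but inside the gene spans given above. A match of letters is a description and no binding was measured.

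The 9 libraries held 14658645 to 19609878 counts. Levels are given as CPM, counts brought to a common library size, here scaled by the trimmed mean of M values (TMM) over all 9 libraries, and a gene was called when edgeR's quasi-likelihood test gave an adjusted p under 0.05, over all genes tested, with an absolute log2 fold change over 0.58. The libraries of a group were not equal. IMQ 1 was the lowest IMQ library for 9 of the 10 genes, all but Relb, and its fibroblast markers summed to 10600 CPM against 3302 and 4621 CPM in the other IMQ libraries. LYS 1 was the highest LYS library for 5 of the 10 genes, and its keratinocyte markers summed to 33868 CPM against 19122 and 18195 CPM in the other LYS libraries. Values without 1 of these libraries stand beside the results whose call they change. The labels do not say that libraries came from separate mice, so the p-values measure only the spread between these libraries.

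In skin that received imiquimod, RNA of this feedback circuit was called higher for all but 1 of its genes. Tnf rose 15.02-fold, Bcl3 6.87-fold and Nfkbiz 5.38-fold over the Control group, while Birc3, Nfkbia, Tnfaip3, Tnip1, Nfkb2 and Traf1 rose 1.58- to 3.00-fold. Thus 9 of the 10 genes were called higher and none lower, where 24.1% of the 15976 genes tested were called higher and 26.9% lower. The 3 IMQ libraries lay above all 3 Control libraries for 10 of the 10 genes, as they did for 34.1% of all genes tested, with 36% lying below. The median log2 fold change was 1.09 over the 10 genes and -0.06 over all genes tested.

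**Figure D1:**
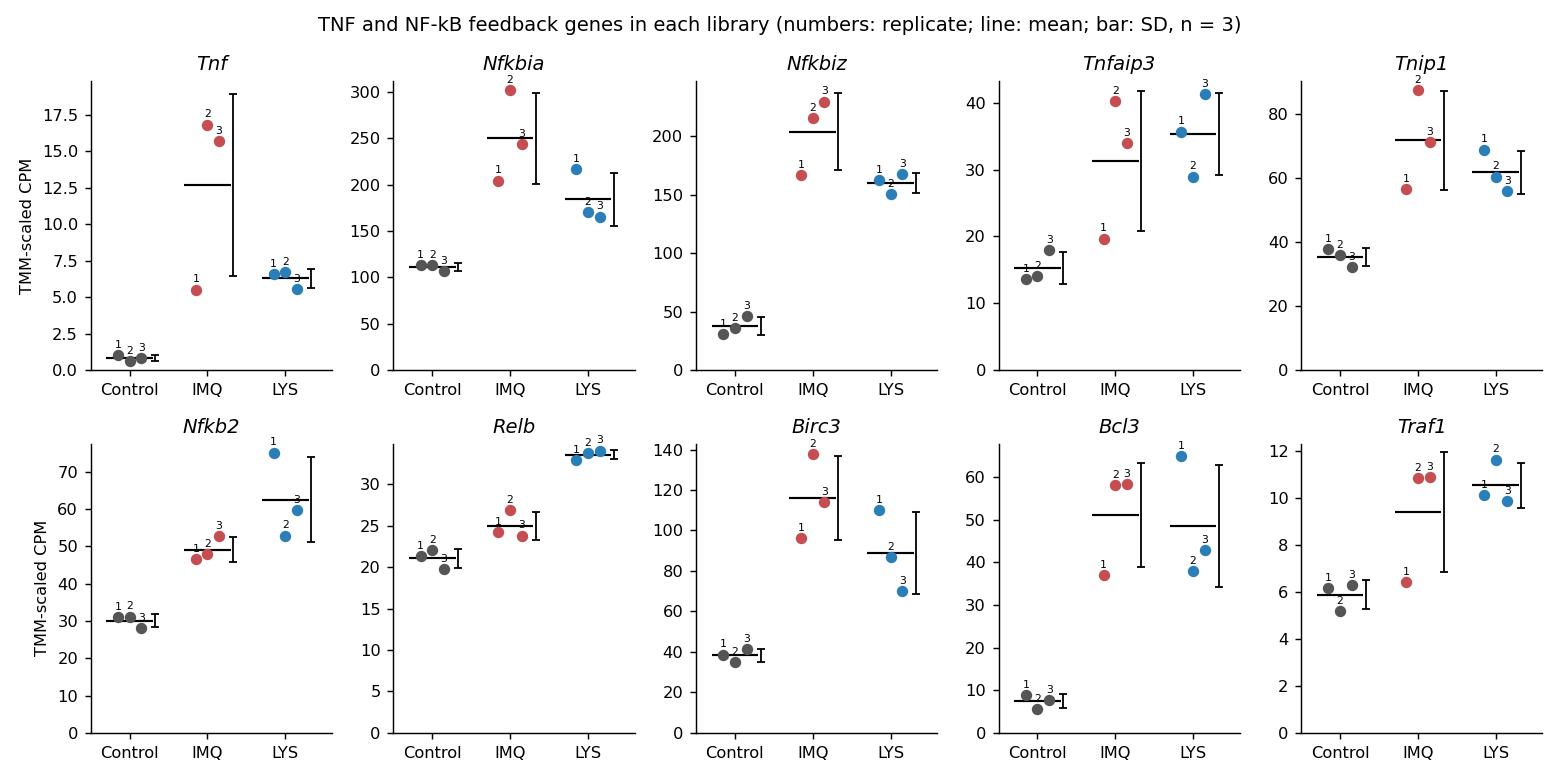
TMM-scaled CPM (y axes, linear from 0) of each of the 10 genes in the 3 Control, 3 IMQ and 3 LYS libraries (x axes); numbered points are libraries, the line is the group mean and the bar its SD (n = 3). For every gene the 3 Control points lie, on this scale, below all IMQ and LYS points, and IMQ 1 is the lowest IMQ point except for Relb.

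Tnf, the ligand of the circuit, was scarce in Control skin at 1.01, 0.647 and 0.828 CPM. It stood at 5.53, 16.8 and 15.7 CPM in the IMQ libraries and at 6.56, 6.72 and 5.56 CPM in the LYS libraries. The lowest IMQ library lay just under the lowest LYS library, and the other IMQ libraries were above all LYS libraries. IMQ against Control gave a log2 fold change of 3.91 ± 0.47 (SE), with an adjusted p of 2.5e-04 by edgeR. It was above 98.1% of the genes tested in that comparison.

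Nfkbia encodes IkB-alpha, which binds NF-kB in the cytoplasm and is resynthesised after NF-kB acts. It was at 113, 114 and 107 CPM in the Control libraries, 204, 302 and 243 CPM in the IMQ libraries and 217, 170 and 165 CPM in the LYS libraries. Every treated library was above the Control range, and the IMQ and LYS ranges overlapped. Its log2 fold change in IMQ against Control was 1.16 ± 0.15 (SE, adjusted p = 4.0e-04, edgeR).

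Nfkbiz and Bcl3 encode nuclear members of the IkB family that act with NF-kB at selected promoters, and Nfkbiz is a mediator of the keratinocyte response to IL-17. Nfkbiz was at 30.8, 35.9 and 46.1 CPM in the Control libraries, 167, 215 and 229.5 CPM in the IMQ libraries and 162, 150.2 and 167 CPM in the LYS libraries. Bcl3 was at 8.84, 5.59 and 7.74 CPM in the Control libraries, 37.0, 58 and 58.3 CPM in the IMQ libraries and 64.8, 37.9 and 42.9 CPM in the LYS libraries. Both were well above the Control range in every treated library, and in Bcl3 the highest value of all was in LYS 1. IMQ against Control gave log2 fold changes of 2.43 ± 0.19 (SE) for Nfkbiz and 2.78 ± 0.24 (SE) for Bcl3. The adjusted p values by edgeR were 4.2e-05 and 5.4e-05.

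Tnfaip3 encodes the ubiquitin-editing enzyme A20, and Tnip1 its partner ABIN1, both brakes on TNF receptor signalling. Tnfaip3 was at 13.6, 14.0 and 18.0 CPM in the Control libraries, 19.7, 40.2 and 33.9 CPM in the IMQ libraries and 35.7, 28.9 and 41.2 CPM in the LYS libraries. Tnip1 was at 37.7, 35.9 and 32.2 CPM in the Control libraries, 56.5, 87.5 and 71.1 CPM in the IMQ libraries and 68.9, 60.4 and 55.8 CPM in the LYS libraries. For Tnfaip3 the lowest IMQ library came close to the highest Control library without reaching it. The log2 fold changes in IMQ against Control were 1.03 ± 0.26 (SE) for Tnfaip3 and 1.01 ± 0.16 (SE) for Tnip1. The adjusted p values were 0.00904 and 0.00101 by edgeR.

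Birc3 encodes a ubiquitin ligase of the TNF receptor complex, and Traf1 an adaptor found in the same complexes. Birc3 was at 38.6, 35.2 and 41.5 CPM in the Control libraries, 96.2, 138 and 114 CPM in the IMQ libraries and 110.1, 86.7 and 70.1 CPM in the LYS libraries. Its groups were clearly apart from Control, with a log2 fold change of 1.58 ± 0.15 (SE, adjusted p = 8.2e-05, edgeR) in IMQ against Control. Traf1 was at 6.18, 5.17 and 6.28 CPM in the Control libraries, 6.44, 10.9 and 10.9 CPM in the IMQ libraries and 10.1, 11.6 and 9.86 CPM in the LYS libraries. IMQ 1 stood next to the Control libraries for Traf1, and the other treated libraries were all higher. Its log2 fold change of 0.66 ± 0.24 (SE) in IMQ against Control had an adjusted p of 0.0431 by edgeR, and leaving out any library other than IMQ 1 ended the call, with adjusted p values of 0.0734 to 0.131. Without IMQ 1 the log2 fold change was 0.90, with an adjusted p of 0.00426.

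Nfkb2 and Relb encode the subunits of the non-canonical NF-kB dimer, and the unprocessed Nfkb2 product also acts as an inhibitor. Nfkb2 was at 31.0, 31.2 and 28.1 CPM in the Control libraries, 46.5, 47.9 and 52.8 CPM in the IMQ libraries and 75.1, 52.9 and 59.6 CPM in the LYS libraries. Relb was at 21.3, 22.1 and 19.8 CPM in the Control libraries, 24.2, 26.9 and 23.8 CPM in the IMQ libraries and 32.9, 33.8 and 34.1 CPM in the LYS libraries. For both genes the 3 groups did not overlap and stood in the order Control, IMQ, LYS. Nfkb2 had a log2 fold change of 0.70 ± 0.11 (SE, adjusted p = 9.95e-04, edgeR) in IMQ against Control. Relb was the gene not called there, at 0.24 ± 0.12 (SE, adjusted p = 0.118, edgeR), with a 95% interval of -0.04 to 0.51.

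The size of these differences depended on how libraries were scaled. With library totals in place of TMM the median over all genes tested moved to -0.51, and the share of called genes that were higher went from 47.3% to 25.9%. The 10 genes then had a median log2 fold change of 0.63, and 10 of 10 remained above the median over all genes. Tnf, Nfkbia, Nfkbiz, Birc3 and Bcl3 were still called higher, and Tnfaip3, Tnip1, Nfkb2 and Traf1 were not. Relb then changed sign to -0.21, with an adjusted p of 0.181 by edgeR.

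Cell-type markers moved in the same comparison. All 8 keratinocyte markers were called higher and their summed level went from 6111 to 10478 CPM in the Control group to 42240 to 56280 CPM in the IMQ group. All 6 neutrophil markers tested, of 8, were called higher, with sums of 20.8 to 27.4 and 202 to 577 CPM. Of 7 fibroblast markers 6 were called lower, as were 6 of 7 endothelial markers, all 5 adipocyte markers, all 6 skeletal muscle markers and all 7 hair follicle markers. The 10 markers of macrophages and dendritic cells split into 2 called higher and 5 called lower, and the 9 T cell markers into 4 and 2. Of 3 Langerhans cell markers 2 were called higher. Of 5 B cell markers 2 were tested and 1 was called higher. No marker was at 3 counts or fewer in every library, and the neutrophil marker Ly6g was at 2 counts or fewer in each Control library. The part of these shifts in the 10 genes was not tested.

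LYS skin and IMQ skin differed in no single direction over the circuit. Tnf, Nfkbia, Nfkbiz, Birc3, Tnip1 and Bcl3 had lower fitted values than in IMQ skin, and Relb, Nfkb2, Tnfaip3 and Traf1 had higher ones. None of these differences was called. Counts called were 0 of 10 for the genes and 0% higher and 0% lower for the 15460 genes tested, in a comparison whose smallest adjusted p was 0.0591 (edgeR). At an unadjusted p under 0.05 by edgeR, 2 of the 10 genes were higher and 0 lower, against 19.3% and 15.9% of all genes. The groups did not overlap for 2 genes, both higher in LYS, against 16.8% higher and 22.1% lower over all genes. These shares for the 10 genes were near or under the background. DESeq2 called 3334 genes in this comparison and none of the 10. The median log2 fold change was -0.08 over the 10 genes and 0.04 over all genes.

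**Figure D2:**
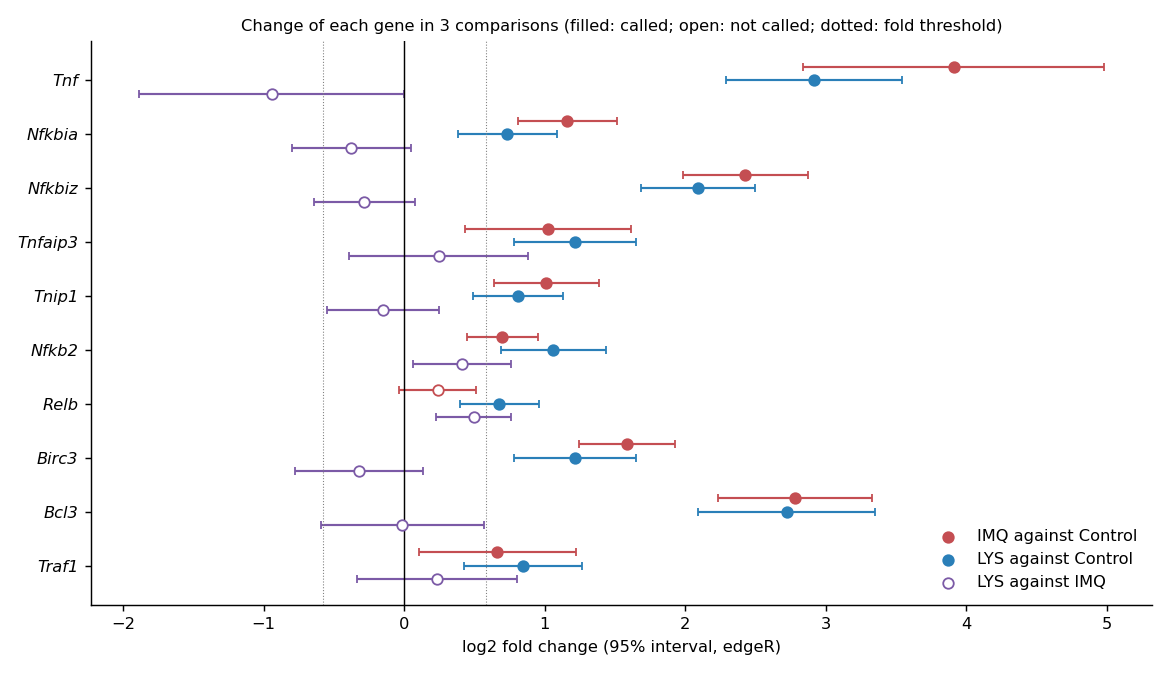
log2 fold change (x axis) of each of the 10 genes (y axis) in IMQ against Control, LYS against Control and LYS against IMQ; points are edgeR estimates, bars their 95% intervals, filled points were called and dotted lines mark the fold threshold of 0.58. Against Control 19 of 20 points are called higher, all but Relb in IMQ, and in LYS against IMQ no point is called and only the intervals of Relb and Nfkb2 lie wholly on one side of 0.

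The 2 subunit genes of the non-canonical dimer were the genes of the circuit whose LYS libraries all lay above the IMQ libraries, as for 16.8% of all genes. For Nfkb2 the gap was narrow, from 52.8 CPM in IMQ 3 to 52.9 CPM in LYS 2. Outside the circuit, Map3k14 and Ltb of the non-canonical route were not called in LYS against IMQ. They stood at 0.16 (adjusted p = 0.493) and 0.54 (adjusted p = 0.163) by edgeR. Relb was higher by 0.49 ± 0.11 on the log2 scale (SE, 95% interval 0.23 to 0.76), with an adjusted p of 0.0591 by edgeR, and its LYS libraries spanned just 32.9 to 34.1 CPM. Nfkb2 was higher by 0.41 ± 0.15 (SE, 95% interval 0.07 to 0.76), with an adjusted p of 0.101 by edgeR. For Relb DESeq2 gave an adjusted p of 0.0128 and edgeR on all 9 libraries 0.0306, in both with a fold under the threshold. The highest adjusted p by edgeR was 0.220 for Relb, with a replicate block, and 0.272 for Nfkb2, without IMQ 2. With library totals, which move the median over all genes to 0.29 in this comparison, the log2 fold changes were 0.75 for Relb and 0.66 for Nfkb2, each with an adjusted p of 0.0527 by edgeR.

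Tnf had the largest fitted difference of the 10 genes, a log2 fold change of -0.94 ± 0.40 (SE), or 0.521 of the IMQ level. Its 95% interval ran from -1.88 to 0.00 and its adjusted p was 0.143 by edgeR. The call rested on IMQ 1, the library at 5.53 CPM. Without it the log2 fold change was -1.31 and the adjusted p 0.0406, so that Tnf was called lower. Without any other single library the log2 fold change was between -0.99 and -0.70, and Tnf was not called.

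For the remaining genes of the circuit the intervals were wide enough to hold changes in either direction. Nfkbia had a log2 fold change of -0.37 (95% interval -0.80 to 0.05), Nfkbiz of -0.28 (-0.64 to 0.08) and Birc3 of -0.32 (-0.77 to 0.14). Bcl3 stood at -0.01 (-0.59 to 0.57), Tnip1 at -0.15 (-0.55 to 0.25), Tnfaip3 at 0.25 (-0.39 to 0.88) and Traf1 at 0.23 (-0.34 to 0.81). The adjusted p values by edgeR were between 0.179 and 0.977. Within these intervals a change past the fold threshold remained possible as a rise for Tnfaip3 and Traf1 and as a fall for Nfkbia, Nfkbiz, Birc3 and Bcl3.

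**Figure D3:**
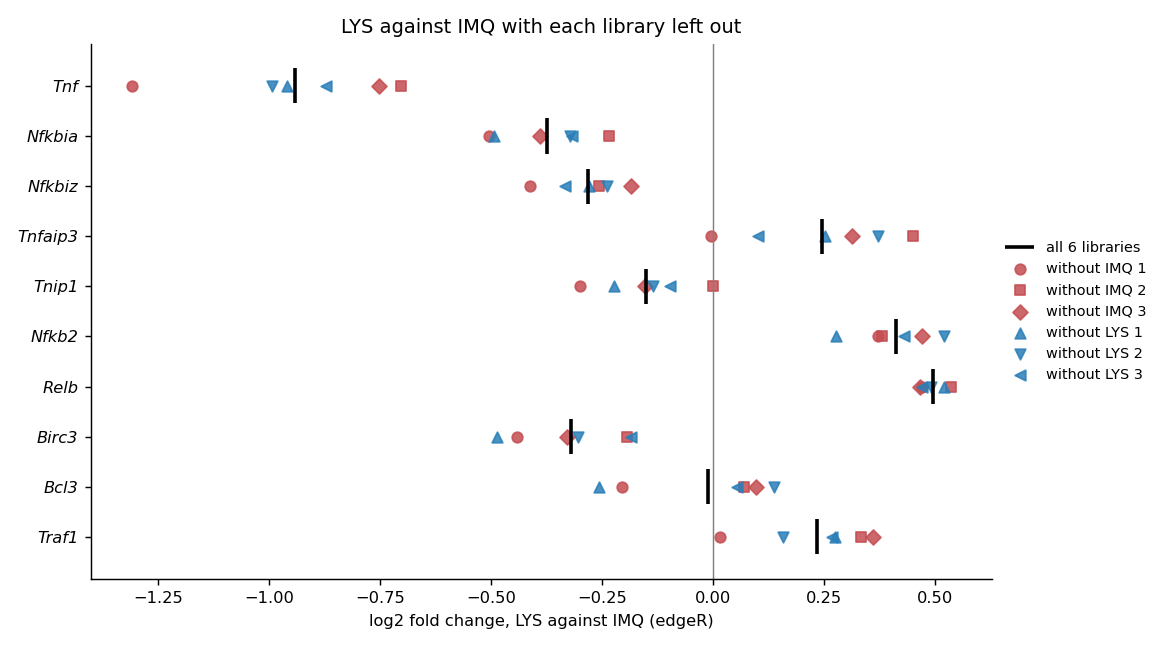
log2 fold change in LYS against IMQ (x axis) of each of the 10 genes (y axis) with all 6 libraries (black bar) and with each IMQ (red) or LYS (blue) library left out. Relb and Nfkb2 stay above 0 and Tnf, Nfkbia, Nfkbiz and Birc3 below 0 in every case, Tnf moves to -1.31 without IMQ 1, and the points of Bcl3, Tnfaip3 and Tnip1 fall on both sides of 0.

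Markers of several cell types differed between these groups as well. Summed keratinocyte markers were at 18195 to 33868 CPM in the LYS libraries against 42240 to 56280 CPM in the IMQ libraries, without overlap. Neutrophil markers were at 154 to 366 against 202 to 577 CPM, ranges that overlapped. Of the 6 neutrophil markers tested 5 had lower fitted values in LYS and 1 a higher one, Csf3r, at a mean of 167 against 91.7 CPM. Markers of macrophages and dendritic cells summed to 2127 to 4718 CPM against 1212 to 1491 CPM, and T cell markers to 34.6 to 42.9 against 14.6 to 28.5 CPM, without overlap. Within these lists 2 of 10 and 1 of 9 markers had lower fitted values in LYS. Adipocyte markers summed to 860 to 2023 against 246 to 807 CPM, also without overlap. Endothelial markers were at 312 to 602 against 157 to 314 CPM and fibroblast markers at 9093 to 17529 against 3302 to 10600 CPM, each with a slight overlap. No marker passed the call, in a comparison where 0% of all genes did. At an unadjusted p under 0.05 by edgeR, 8 of 10 markers of macrophages and dendritic cells were higher. So were 6 of 7 endothelial and 5 of 7 fibroblast markers, against 19.3% of all genes. Of 8 keratinocyte markers 4 were lower at that p, against 15.9% of all genes. The part of these shifts in the values of the 10 genes, or of the pathway genes below, was not tested.

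Against the Control group, LYS skin still had more RNA of every gene of the circuit. All 10 genes were called higher, where 15.1% of the 16003 genes tested were called higher and 12.9% lower. The groups did not overlap for 10 of 10 genes, as for 25% of all genes on the higher and 25.3% on the lower side. This comparison shares its Control libraries with IMQ against Control and its LYS libraries with LYS against IMQ, so it is no separate evidence for either. In it 6 of 8 keratinocyte markers, all 6 neutrophil markers tested, 5 of 9 T cell markers and 2 of 10 markers of macrophages and dendritic cells were called higher. All 7 hair follicle and 5 adipocyte markers and 4 of 6 skeletal muscle markers were called lower, and the 7 fibroblast markers split into 1 called higher and 2 lower. Of 2 B cell markers tested 1 was called higher, and no endothelial or Langerhans cell marker was called. Their part in the 10 genes was not tested.

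The log2 fold changes in LYS against Control were 2.92 ± 0.27 (SE) for Tnf, 2.72 ± 0.27 for Bcl3 and 2.09 ± 0.17 for Nfkbiz, so the ligand and both nuclear IkB genes again led. Tnfaip3 and Birc3 both stood at 1.22 ± 0.19, Nfkb2 at 1.06 ± 0.16, Traf1 at 0.85 ± 0.18 and Tnip1 at 0.81 ± 0.14. Nfkbia stood at 0.74 ± 0.15 and Relb at 0.68 ± 0.12. The adjusted p values by edgeR were between 4.3e-04 for Nfkbiz and 0.0116 for Traf1. Relb was thus called in LYS against Control and not in IMQ against Control, and the difference between LYS and IMQ itself did not pass. With library totals Relb was not called in LYS against Control either, at a log2 fold change of 0.54 (adjusted p = 0.0164, edgeR), under the fold threshold. Traf1 lost its call without LYS 2, at an adjusted p of 0.0530, and with a replicate block, at 0.0528.

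Compared per length, as deposited FPKM (fragments per kilobase of exon, scaled to the library total), Nfkbia was the most abundant of the 10 genes in every group, at 79.1 ± 1.2 in Control, 129 ± 17 in IMQ and 119 ± 11 in LYS (SD, n = 3). In Control skin Tnip1 (11.4), Birc3 (8.83), Nfkbiz (8.63), Nfkb2 (7.52), Relb (6.21), Bcl3 (3.44) and Tnfaip3 (2.43) followed as group mean FPKM, and Traf1 (0.767) and Tnf (0.582) came last. Libraries of neighbours in this order overlapped for Birc3 with Nfkbiz, Nfkbiz with Nfkb2, Bcl3 with Tnfaip3 and Traf1 with Tnf. In IMQ skin Nfkbiz was second, at 33.7 FPKM, followed by Birc3 at 19.2, Bcl3 at 17.1 and Tnip1 at 16.8, whose neighbours overlapped. Nfkb2 at 8.95 preceded Tnf at 6.30 and Relb at 5.37, which overlapped, and Tnfaip3 at 3.56 and Traf1 at 0.880 closed the order. Tnf thus moved from rank 10 to rank 7 and Bcl3 from rank 7 to rank 4.

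In LYS skin Nfkbia and Nfkbiz, at 33.3 FPKM, again led. Bcl3 at 20.3, Birc3 at 18.4 and Tnip1 at 18.1 overlapped with their neighbours, followed by Nfkb2 at 14.2, whose libraries overlapped with those of Birc3 but not of Tnip1, and by Relb at 9.04, which overlapped with neither neighbour. Tnfaip3 at 5.11 overlapped with Tnf at 3.99, which was at rank 9, and Traf1 was last at 1.25. FPKM is set by library totals, and on it Relb was lower in IMQ than in Control, at 5.37 ± 0.39 against 6.21 ± 0.10 (SD, n = 3), opposite to its direction in TMM-scaled CPM.

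**Figure D4:**
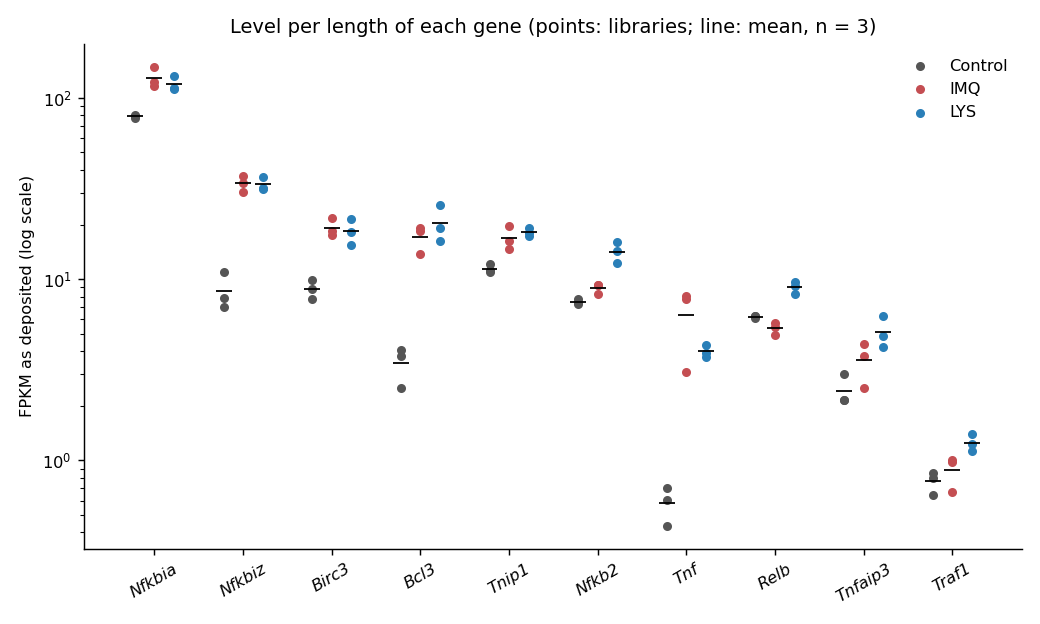
FPKM as deposited (y axis, log scale) of the 10 genes (x axis, by rank in the IMQ group) in Control, IMQ and LYS; points are libraries and lines group means (n = 3). Nfkbia lies highest in every group, at a mean of 79.1 to 129 FPKM, and Tnf rises from the lowest place in Control to rank 7 in IMQ.

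Around the 10 genes, 6 lists hold 74 other genes of TNF and NF-kB signalling, of which 68 were tested in IMQ against Control. There 34 were called higher and 4 lower, beside the background of 24.1% and 26.9%, and their median log2 fold change was 0.70. The 68 tested in LYS against IMQ held 0 calls in either direction at a median of -0.10. At an unadjusted p under 0.05 by edgeR 11 were higher and 8 lower, each a smaller share than the 19.3% and 15.9% over all genes. Of the 67 tested in LYS against Control, 31 were called higher and 1 lower, beside 15.1% and 12.9% of all genes. These all-gene shares of calls are also the background for each list below. Tnfsf11, Cd40lg, Csf2, Il6, Bcl2a1b and Cxcl5 had too few counts to be tested in IMQ against Control.

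**Figure D5:**
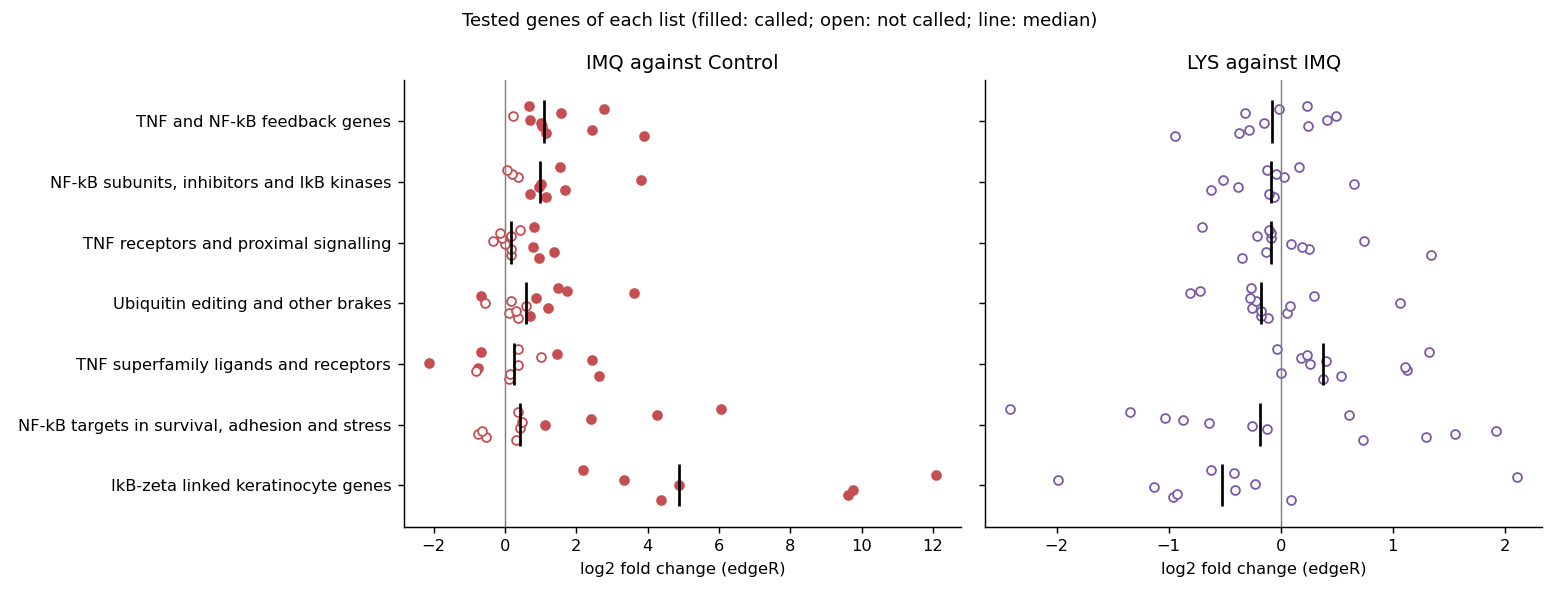
log2 fold change (x axes) of the tested genes of the 10-gene set and of 6 lists of other pathway genes (y axis) in IMQ against Control (left) and LYS against IMQ (right); filled points were called, black lines are medians, and genes at 3 counts or fewer in every library of either group are not drawn. All drawn genes of the IkB-zeta list are called higher in IMQ against Control, receptors and proximal signalling centre near 0 at a median of 0.18, and no point is called in LYS against IMQ.

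Among NF-kB subunits, inhibitors and IkB kinases, 7 of 10 genes were called higher in IMQ against Control and none lower. Nfkbid, a nuclear IkB gene, had a log2 fold change of 3.81, Rel, a subunit gene, 1.69, and Map3k14, the kinase gene of the non-canonical route, 1.54. Nfkb1, the subunit paired with Rela, stood at 1.15 and the inhibitor gene Nfkbie at 1.02. The 3 genes not called were those of the IkB kinase complex, Ikbkb at 0.38, Ikbkg at 0.19 and Chuk at 0.07. LYS against Control held 5 of these 10 as called higher, with Nfkbid at 3.25 and Nfkbie at 1.62. Rel, at 1.02 there, lost its call without Control 1 (adjusted p = 0.0727, edgeR) or Control 2 (0.0698). In LYS against IMQ Rel stood at -0.62 (adjusted p = 0.0876) and Nfkbie at 0.65 (0.0700) by edgeR, not called. DESeq2 called Rel lower (0.0454) and Nfkbie higher (0.0315), as did edgeR on all 9 libraries (0.0482 and 0.0427). Without LYS 1 Rel was also called lower, at -0.90 (0.00747, edgeR). The highest adjusted p by edgeR was 0.247 for Rel and 0.220 for Nfkbie.

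Of 12 genes for receptors and proximal signalling, 4 were called higher and none lower in IMQ against Control, beside 24.1% and 26.9% of all genes. The TNF receptor gene Tnfrsf1a was higher by 0.96 on the log2 scale and the adaptor gene Tradd by 1.39, beside Traf2 at 0.78 and Tab3 at 0.82. With library totals Tnfrsf1a, at 0.51, and Nfkbie, at 0.56, were under the fold threshold and not called. Traf2 and Tab3, whose changes were smaller than that of Tnfrsf1a, were not examined with library totals. The other TNF receptor gene, Tnfrsf1b, was at 54.4, 41.2 and 32.3 CPM in the Control libraries, 50.3, 50.6 and 44.6 CPM in the IMQ libraries and 79.5, 135 and 136 CPM in the LYS libraries. Its LYS libraries were above all others, at a log2 fold change of 1.34 ± 0.23 (SE, adjusted p = 0.0591, edgeR) in LYS against IMQ and 1.46 ± 0.26 (SE, adjusted p = 0.0062, edgeR) in LYS against Control. In LYS against IMQ it was called by DESeq2 (adjusted p = 7.0e-05) and by edgeR with all 9 libraries in 1 fit (0.0207), with no low-count filter (0.0137), without IMQ 1 (0.0439) and without LYS 1 (0.00551), and the replicate block gave the highest adjusted p, 0.220. LYS against Control held 3 of the 12 as called higher.

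Of 13 genes for ubiquitin editing and other brakes, 6 were called higher and 1, Otud7b, lower in IMQ against Control. The RNA-decay genes led: Zc3h12a had a log2 fold change of 3.62 and Zfp36 of 1.73. They stood at -0.81 (adjusted p = 0.166) and -0.72 (adjusted p = 0.124) by edgeR in LYS against IMQ. There Zc3h12a was called lower without LYS 1, at -1.35 (adjusted p = 0.0103, edgeR), and Zfp36 without IMQ 1, at -0.97 (adjusted p = 0.0462, edgeR). Against Control, 5 were called higher in LYS. Among the TNF superfamily 3 of 12 tested were called higher and 3 lower in IMQ against Control, near the 24.1% and 26.9% over all genes. The called genes included Ltb, a ligand of the non-canonical route, at 2.64, Tnfsf14 at 2.44 and Tnfrsf13c at -2.13. In LYS against Control 3 of 12 were called higher and 1 lower.

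The targets in survival, adhesion and stress split. In IMQ against Control 5 of 12 tested were called higher and none lower, among them Ptgs2, the inducible cyclooxygenase, at 6.06 and Ier3 at 4.27. Csf3, the granulocyte growth factor, had 0, 0 and 3 counts in the Control libraries and was at 1.52, 9.60 and 4.76 CPM in the IMQ libraries and 1.12, 1.13 and 0.573 CPM in the LYS libraries. The adhesion genes Icam1, Vcam1 and Selp were not called, at 0.30, -0.53 and -0.63, and Icam1 changed sign to -0.14 with library totals. Without IMQ 1, Vcam1 stood at -0.80 (adjusted p = 0.0085, edgeR) and Selp at -1.21 (adjusted p = 0.00549, edgeR), both called lower, and library totals also called Vcam1 lower, at -0.96. In LYS against Control 8 of 12 were called higher, including Icam1 at 0.98 and Selp at 1.23. Selp lost that call without Control 1 (adjusted p = 0.0777, edgeR), Control 3 (0.0581) or LYS 2 (0.0507).

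Selp, which marks activated endothelium and platelets, was at 10.05, 14.0 and 8.77 CPM in the Control libraries, 11.7, 4.09 and 5.35 CPM in the IMQ libraries and 18.2, 35.9 and 23.0 CPM in the LYS libraries. Its log2 fold change in LYS against IMQ was 1.92 ± 0.44 (SE, adjusted p = 0.0591, edgeR), that of Icam1 was 0.74 and that of Vcam1 1.30, beside Ptgs2 at -1.35, Ier3 at -1.04 and Csf3 at -2.41. None of these was called by edgeR with all 6 libraries and the low-count filter. DESeq2 called Selp (adjusted p = 5.8e-04), Icam1 (9.9e-04), Vcam1 (0.0107), Csf3 (0.00367) and Ier3 (0.0205) in the same direction, as did edgeR with no low-count filter and with all 9 libraries in 1 fit. Leaving out IMQ 1 also made Selp (2.51), Icam1 (0.75), Ier3 (-1.31) and Csf3 (-2.86) calls, and leaving out LYS 1 made Selp (2.12), Icam1 (0.75), Vcam1 (1.59) and Ier3 (-1.35) calls. With median-of-ratios scaling, library totals or a replicate block 0 genes were called in LYS against IMQ. The replicate block gave adjusted p values by edgeR of 0.220 for Selp, Icam1 and Csf3 and 0.233 for Vcam1. For Ier3 the highest adjusted p by edgeR was 0.254, without IMQ 3. Tnfrsf1b, Icam1, Vcam1 and Selp were chosen for naming after their values were seen. In LYS against IMQ all 7 endothelial markers also had higher fitted values, at a median log2 fold change of 1.25. Of 10 markers of macrophages and dendritic cells 8 were higher and 2 lower, at a median of 1.52. The part of these cell types in the values of Tnfrsf1b, Icam1, Vcam1 and Selp was not tested. Exons overlap those of genes on the opposite strand by 511 bases for Icam1, 61 bases for Vcam1, 438 and 186 bases for Selp and 125 bases for Zfp36, and Map3k14 shares 135 bases with a gene on its own strand.

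All 9 tested genes of the list linked to IkB-zeta in keratinocytes were called higher in IMQ against Control. The median log2 fold change was 7.91, and 4.87 with Defb4 and Il17c set against 3 counts in each Control library, where they had none or 1 count at most. Cxcl2, a neutrophil chemokine, had 6, 1 and 1 counts in the Control libraries and was at 165, 805 and 786 CPM in the IMQ libraries and 257, 136 and 33.5 CPM in the LYS libraries. S100a9, an alarmin of keratinocytes and neutrophils, was at 10.5, 6.84 and 30.1 CPM in the Control libraries, 10947, 15105 and 15339 CPM in the IMQ libraries and 9409, 8494 and 3084 CPM in the LYS libraries. In LYS against IMQ the log2 fold changes were -1.99 (adjusted p = 0.13) for Cxcl2 and -0.92 (adjusted p = 0.187) for S100a9 by edgeR. In LYS against Control 7 of the 8 tested were called higher.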

How the data were processed

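RNA from mouse back skin was measured in 9 libraries. The authors deposited 1 table with raw counts per gene and FPKM, and the submitters' processing notes name HISAT2, HTSeq 0.13.5 and GRCm38. The deposited FPKM equalled count per exon length (GENCODE M21 for the genes described) and summed counts, so it carries no scaling beyond library totals. Groups came from sample titles. Library depth of 14658645 to 19609878 counts limits genes of a few counts.

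Counts were tested with edgeR 4.0.16 in R 4.3.3 (TMM, filterByExpr, glmQLFTest, Benjamini-Hochberg over all genes tested), each fit holding the 6 libraries compared, with the fold and p thresholds the study states. The script was tested on simulated data. Alternatives were DESeq2 1.42.0, other scalings, filters and thresholds, all 9 libraries in 1 fit, a replicate block and leaving out each library. Same-numbered libraries were not treated as paired (correlation of deviations -0.46 to 0.20). With 3 libraries in each group these correlations cannot exclude a batch shared by same-numbered libraries.

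The 10 genes and the lists were chosen with earlier results of these data known. From each pathway list the called genes with the largest change in IMQ against Control (up to 5), and up to 3 not called or not tested, could be named. Krt85, a hair marker, was not analysed here. Il36g was matched as Il1f9. Promoter sequence came from RefSeq.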

Additional observations from a re-analysis of the deposited data

How the results depend on the processing

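The count of genes of the circuit called in IMQ against Control was 8 to 9 when single libraries were left out and 5 with library totals. In LYS against IMQ it was 0 to 1, the 1 being Tnf without IMQ 1, and it was 0 with DESeq2, where 3334 genes were called, with all 9 libraries in 1 fit (3040 genes) and with no low-count filter (2419 genes). Other pathway genes called there were 16, 14 and 11. Leaving out 1 library gave 0 to 4262 genes and 0 to 18 other pathway genes called in that comparison: 1873 and 9 without IMQ 1, 4262 and 18 without LYS 1, and 0 without any other. In LYS against Control the circuit held 9 to 10 calls, and 6 with a log2 fold change over 1. Genes called there were 4476, 2910 at that threshold and 2579 to 5072 with single libraries left out, the lowest without Control 1, with 2947 without Control 2 and 2926 without LYS 2. With a replicate block 8, 0 and 9 of the 10 genes were called in the 3 comparisons, with 8044, 0 and 3126 genes over the whole table. Traf1 was the gene lost both times.

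Signs changed with library totals for Relb (-0.21), Tnfrsf1b (-0.26) and Icam1 (-0.14) in IMQ against Control and for Tnip1 (0.11), Bcl3 (0.25), Nfkb1 (0.19) and Tradd (0.12) in LYS against IMQ. With no low-count filter Bcl3 stood at 0.00029 there. With single libraries left out the ranges in LYS against IMQ crossed 0 for Tnfaip3 (-0.0051 to 0.45), Tnip1 (-0.30 to 0.00020), Bcl3 (-0.26 to 0.14) and Nfkb1 (-0.16 to 0.016). None of these was called. The cause was not tested. Library totals moved the median over all genes tested to 0.29 in LYS against IMQ and -0.15 in LYS against Control, where the share of called genes that were higher went from 53.9% to 41.5%.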

Other observations

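Over the 9 libraries, the genes outside the circuit whose level followed the mean of its 10 genes most closely were Bcl2a1d, a survival gene of the Bcl2 family (Pearson r = 0.991), Cry1, a circadian repressor (0.991), Nfya, a transcription factor subunit (0.990), Snx20 (0.989) and Arrdc1 (0.988), among 14754 genes with a mean of at least 1 CPM. Bcl2a1d was at a mean of 2.54 CPM in Control, 15.8 CPM in IMQ and 15.3 CPM in LYS, and Snx20 at 5.02, 22.6 and 22.5 CPM. Bcl2a1d has near-identical copies, so its counts are uncertain.

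For Tnf alone the closest were Khdc4 (r = 0.996), Ccnl2 (0.991), Klc1 (0.991), Ccl3 (0.991) and Rpl23a-ps3 (0.989), over the same libraries. Ccl3, a chemokine of myeloid cells, was at a mean of 0.272 CPM in Control, 101 CPM in IMQ and 20.8 CPM in LYS. These 9 libraries fall into 3 groups that share the difference from Control and the scaling, so the values describe likeness and no p is given.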
